A study of Mus musculus with 8 samples.

Results

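The genes described here encode the cytokine TNF, its receptors Tnfrsf1a and Tnfrsf1b, the kinase Ikbkb, the NF-kB factors Nfkb1, Nfkb2, Rela and Relb, and the inhibitors Nfkbia and Tnfaip3. They were chosen by symbol, as a pathway, and 10 of 10 had a value in the panel of 693 genes. RNA came from whole tumours. These had grown from 4MOSC1 cells, which derive from a squamous carcinoma of the mouse mouth, placed in the right cheek of female C57BL/6N mice aged 4 to 6 weeks. The vehicle group (4 tumours) received 50 µl of PBS into the tumour on days 3, 6 and 9, and the CXCL10 group (4 tumours) received 10 µg of the chemokine in the same volume and on the same days. Both groups thus carried the same tumour line and the same 3 injections, and no allele or other agent is named for either group. The sample titles put the collection of all 8 tumours on day 10, whereas the source labels run from day 10 to day 13 for vehicle and from day 14 to day 17 for CXCL10. The titles were followed here, and by the source labels day and treatment could not be told apart. The tumours are numbered within each group and are not stated to come from separate mice, so the spread behind each p-value is that among these 8 tumours and may be partly technical.

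TNF is an inflammatory cytokine made mainly by macrophages, T cells and NK cells, and it can also be made by carcinoma cells. Binding to its receptors leads to activation of the IKK kinase complex, which marks the inhibitor IkB-alpha for destruction and frees the NF-kB dimers to enter the nucleus. The freed factors switch on inflammatory genes and also the genes of their own inhibitors, among them Nfkbia and Tnfaip3, so that the pathway limits itself. Much of its control acts on protein stability and location, which RNA levels do not measure.

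Levels were normalised probe counts, that is counts divided by 1 scaling factor for each tumour by the authors, and deposited as log2 values. The whole counts behind them summed to between 973697 and 1021358 in vehicle and between 1028938 and 1167694 in CXCL10 tumours over the 693 genes. The 10 genes rested on 280 to 2475 counts per tumour, and counting error is part of the spread between tumours, most of all for the genes of smallest spread. Epcam and Cdh1, epithelial genes that mark the carcinoma, had log2 levels of 11.23 to 12.00 and 12.08 to 12.44 over the 8 tumours.

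No member of the pathway changed at the threshold used. The question was whether RNA levels of the TNF and NF-kB genes differed between CXCL10-treated and vehicle-treated tumours. With the limma test over all 693 genes, 0 of the 10 genes had an adjusted p under 0.05, and their adjusted p ran from 0.195 for Tnfaip3 to 0.981 for Ikbkb. In the whole panel 2 genes passed (Cd96 and Il18r1, both higher), which is 0.289% of those tested. At an unadjusted p under 0.05 the count was 1 of 10, Tnfaip3, against 19.0% of the panel, so the share among the 10 genes was no higher than the background. Split by direction, the panel had 15.0% higher and 4.04% lower genes at that level. The groups failed to overlap for 1 of the 10 genes, again Tnfaip3, against 10.8% of the panel (7.79% higher and 3.03% lower).

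The mean was higher after CXCL10 for 8 of the 10 genes, against 69.6% of all genes, and the median log2 difference was 0.07 against 0.13 for the panel. Set against that panel median, 2 genes stood above it, Tnfaip3 by 0.24 and Nfkbia by 0.09, and the other 8 stood below it. With the tumours rescaled by median-of-ratios, by panel median or by quantiles, the panel median was 0.02, 0.05 and 0.01, and the median of the 10 genes was -0.03, -0.0067 and -0.03. The number of the 10 genes with a higher mean was then 2, 5 and 5, and the share of the panel 53.4%, 58.4% and 52.7%. Genes at an unadjusted p under 0.05 split into 61 higher and 60 lower, 76 and 50, and 56 and 64, against 104 and 28 on the authors' scaling.

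The intervals show how large a change these tumours allow. For 9 of the 10 genes the unadjusted 95% interval of the fold change lay inside 1.5-fold in either direction on the authors' scaling. The exception was Tnfaip3, with 1.05 to 1.57. The lowest bound of any of the 10 genes was 0.775, for Rela.

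**Figure D1:**
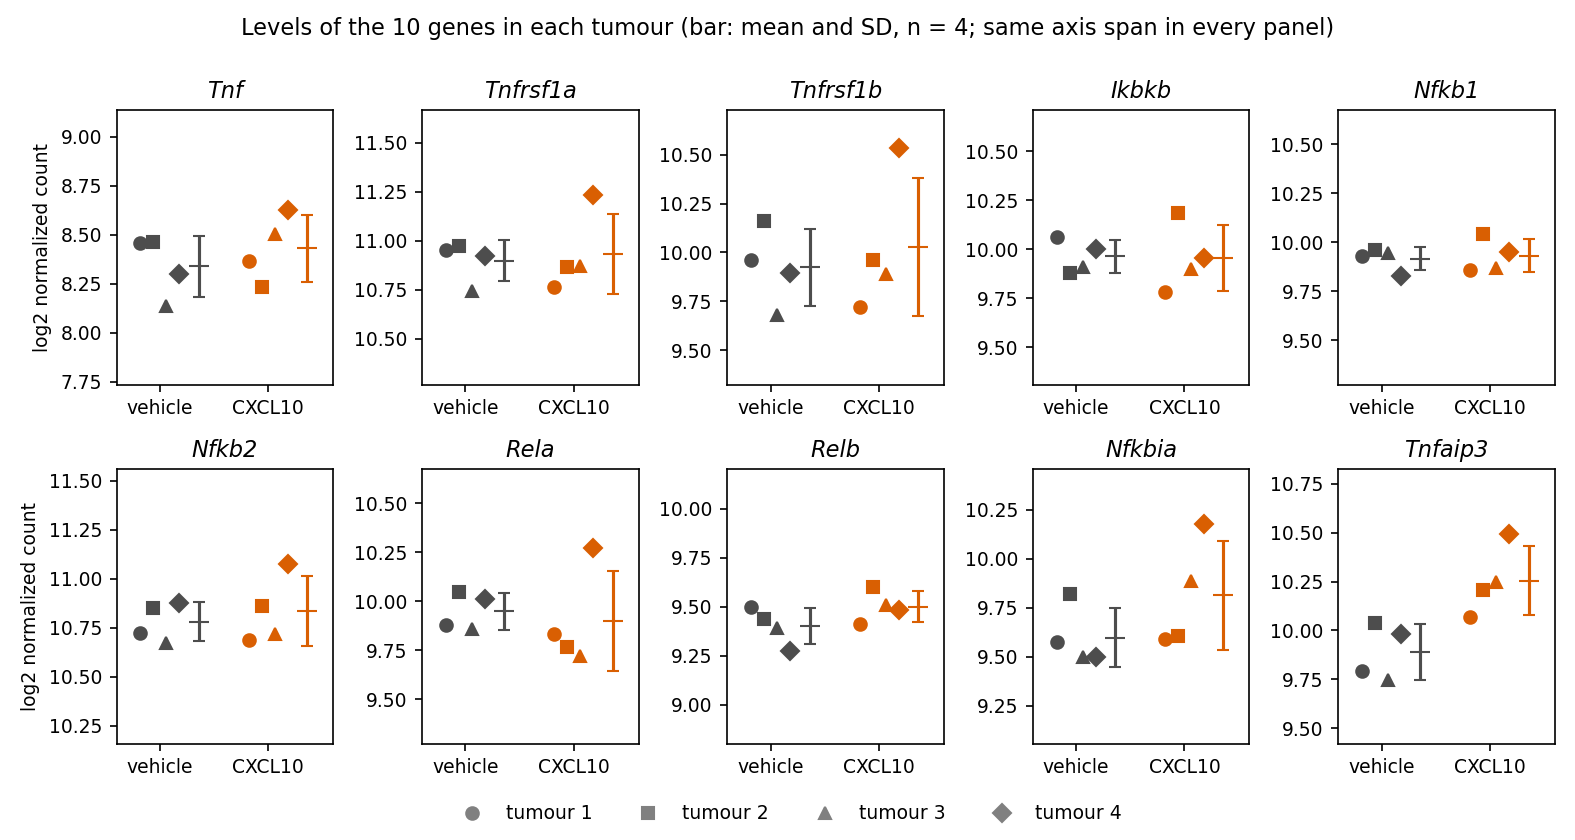
Log2 normalized count (vertical axis) of each of the 10 genes in the 4 vehicle and 4 CXCL10 tumours, with the marker shape giving the tumour number and the bar giving mean and SD. Every panel spans the same range of log2 units. CXCL10 tumour 4 is the highest point for 7 of the 10 genes, and Tnfaip3 is the gene whose groups do not overlap.

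Tnf (Entrez 21926), the ligand, stood at 352, 353, 282 and 315 normalised counts in vehicle tumours 1 to 4. In CXCL10 tumours 1 to 4 it stood at 330, 301, 363 and 395. The groups overlapped: the 2 highest tumours were treated, and the second of the treated tumours lay below 3 of the vehicle tumours. The log2 level was 8.34 ± 0.16 in vehicle and 8.43 ± 0.17 in CXCL10 tumours (SD, n = 4 each). The log2 difference was 0.09 (SE 0.13, limma adjusted p = 0.730), a fold of 1.07 with an unadjusted 95% interval from 0.870 to 1.30. Leaving out 1 tumour moved the difference to between 0.024 (without vehicle tumour 3) and 0.16 (without CXCL10 tumour 2), and it was 0.027 without CXCL10 tumour 4. Tnf RNA from any cell type of the tumour adds to this value, and fewer cells of a type cannot be told apart from less RNA per cell in bulk samples.

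Tnfrsf1a (Entrez 21937) encodes TNF receptor 1, the broadly expressed receptor with a death domain. Its vehicle tumours held 1980, 2012, 1717 and 1943 normalised counts. Its CXCL10 tumours held 1742, 1866, 1873 and 2407. Treated tumour 4 lay above all vehicle tumours, and the other 3 treated tumours lay below the vehicle mean. The log2 difference was 0.04 (SE 0.13, limma adjusted p = 0.889), and without treated tumour 4 it was -0.06.

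Tnfrsf1b (Entrez 21938) encodes TNF receptor 2, which is found chiefly on leucocytes, regulatory T cells among them, and on endothelium. It stood at 996, 1144, 819 and 953 normalised counts in vehicle tumours. In CXCL10 tumours it stood at 845, 998, 949 and 1483. Treated tumour 4 again lay far above the rest, and the other 3 lay within the range of the vehicle group. The SD of the log2 level was 0.35 in CXCL10 and 0.20 in vehicle tumours (n = 4 each), and the authors' coefficient of variation over all tumours, 19.4%, was the highest among the 10 genes. The log2 difference was 0.10 (SE 0.18, limma adjusted p = 0.773), and it was -0.06 without that tumour.

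Ikbkb (Entrez 16150) encodes IKK-beta, the kinase that phosphorylates IkB proteins. Its vehicle tumours held 1071, 940, 962 and 1026 normalised counts and its CXCL10 tumours 881, 1165, 954 and 993. The treated group held both the lowest and the highest tumour. The log2 difference was -0.01 (SE 0.12, limma adjusted p = 0.981), a fold of 0.994 with an unadjusted 95% interval from 0.825 to 1.20.

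Nfkb1 (Entrez 18033) encodes the precursor of a DNA-binding subunit of the canonical NF-kB dimer. It was the steadiest of the 10 genes, with an authors' coefficient of variation of 4.78% over all tumours. Vehicle tumours held 976, 997, 987 and 910 normalised counts, and CXCL10 tumours held 930, 1054, 935 and 990. The groups lay over each other, with a log2 difference of 0.01 (limma adjusted p = 0.956, SE 0.10) and a fold between 0.859 and 1.19 by the unadjusted 95% interval.

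Rela (Entrez 19697) encodes the subunit that carries the transactivation domain of that canonical dimer. Vehicle tumours held 942, 1057, 926 and 1030 normalised counts. CXCL10 tumours held 912, 870, 843 and 1236. In 3 treated tumours the level lay below all 4 vehicle tumours, and in treated tumour 4 it lay above all of them. The log2 difference was -0.05 (SE 0.14, limma adjusted p = 0.862). Without treated tumour 4 it was -0.18 (limma adjusted p = 0.546), and the groups no longer overlapped. Groups of fewer tumours separate more easily, and the panel share without that tumour is not given.

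Nfkb2 (Entrez 18034) and Relb (Entrez 19698) encode the partners of the non-canonical dimer, and both are known NF-kB target genes. Nfkb2 stood at 1690, 1847, 1634 and 1880 normalised counts in vehicle tumours and at 1652, 1860, 1682 and 2156 in CXCL10 tumours. Only treated tumour 4 left the vehicle range on the upper side, and the log2 difference was 0.05 (SE 0.12, limma adjusted p = 0.833). Relb stood at 723, 694, 672 and 620 in vehicle tumours and at 681, 776, 730 and 715 in CXCL10 tumours. All 4 treated tumours lay above the vehicle mean of the log2 level, 2 of them above every vehicle tumour, and tumour 4 was not the highest. The log2 difference of Relb was 0.10 (SE 0.11, limma adjusted p = 0.630), a fold of 1.07 with an unadjusted 95% interval from 0.908 to 1.27.

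The inhibitors Tnfaip3 and Nfkbia had the largest differences of the 10 genes, and both are textbook NF-kB targets. The stretches just before their transcript starts are shown because a kappa-B-like match lies there. The motif searched, a form of the NF-kB binding site, reads 3 times G, any 2 bases, 3 times T and 2 times C, and it was looked for on both strands in windows from 250 bases before to 50 bases after each annotated start (RefSeq, GRCm38.p6). It was settled on after the members' sequences and values had been seen. Windows were found for 7 of the 10 genes, all but Nfkb1, Relb and Ikbkb, and 3 of the 7 held a match: Tnfaip3, Nfkbia and Nfkb2. By window the count was 5 of 10, against 1.63% of all 32851 windows. Every Nfkb2 window held a match, which raises this count. The Nfkb2 windows around the starts at chr19:46305695 and chr19:46305930 overlap. They hold the same match, at positions 10 and -225 from those starts, so that site is counted in each. By gene the share was 1.89% of all annotated genes and 6.89% of the panel genes that had a window. Because the motif was settled on with the members' sequences in view, these shares cannot be read as an enrichment among the members. The 100 bases before the first listed start of these 3 genes follow, with those of Tnf, in whose window no match was found. Letters run 5′ to 3′ on the gene's strand and capitals mark the match to this motif only. Other kappa-B-like forms were not searched for and may lie in the unmarked letters. For Tnfaip3 and Nfkbia the motif reads on the opposite strand, so the capitals show its reverse complement.
Tnfaip3, chr10:19015411-19015510, minus strand: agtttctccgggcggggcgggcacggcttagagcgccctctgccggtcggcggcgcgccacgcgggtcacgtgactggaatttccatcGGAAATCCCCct
Nfkbia, chr12:55492648-55492747, minus strand: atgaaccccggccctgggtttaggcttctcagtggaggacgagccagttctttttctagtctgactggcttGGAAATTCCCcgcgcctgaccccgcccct
Nfkb2, chr19:46304637-46304736, plus strand: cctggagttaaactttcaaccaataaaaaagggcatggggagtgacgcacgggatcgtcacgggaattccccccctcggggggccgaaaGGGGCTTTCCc
Tnf, chr17:35202008-35202107, minus strand: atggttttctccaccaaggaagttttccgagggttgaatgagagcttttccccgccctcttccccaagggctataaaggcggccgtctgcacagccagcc
The matches begin at positions -12, -29 and -11 from the start in Tnfaip3, Nfkbia and Nfkb2. A match is a description of letters and not a binding site, and binding was not measured.

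Tnfaip3 (Entrez 21929) encodes a ubiquitin-editing enzyme that shuts off TNF receptor signalling upstream of IKK. Vehicle tumours held 887, 1053, 860 and 1012 normalised counts. CXCL10 tumours held 1075, 1180, 1215 and 1440. Every treated tumour lay above every vehicle tumour, but the gap was narrow, from a log2 level of 10.04 in vehicle tumour 2 to 10.07 in treated tumour 1. The log2 level was 9.89 ± 0.14 in vehicle and 10.25 ± 0.18 in CXCL10 tumours (SD, n = 4 each). They differed by 0.36 (SE 0.13, limma adjusted p = 0.195, unadjusted p = 0.0195). The difference was larger than that of 83.7% of the panel. It did not pass the test, and with 1 tumour left out it lay between 0.28 and 0.42 with adjusted p from 0.147 to 0.399. With median-of-ratios scaling it was 0.26 and the groups overlapped.

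Nfkbia (Entrez 18035) encodes IkB-alpha, which holds NF-kB in the cytoplasm. Vehicle tumours held 763, 902, 722 and 723 normalised counts. CXCL10 tumours held 769, 779, 945 and 1158. Treated tumours 3 and 4 lay above all vehicle tumours, while treated tumours 1 and 2 lay inside the vehicle range. The log2 difference was 0.22 (SE 0.16, limma adjusted p = 0.464), a fold of 1.16 with an unadjusted 95% interval from 0.914 to 1.48. Without treated tumour 4 the difference was 0.10.

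Nfkb2, the other gene with a match, had the small difference given above, so the 3 genes with the motif did not share a size of change. In the panel as a whole, 508 genes had a window by symbol and 35 of them held the motif in at least 1 window. Their median log2 difference was 0.12 and 26 of the 35 had a higher mean after CXCL10, or 74.3%, against 0.13 and 69.6% over all 693 genes. With the 3 members left out, 23 of 32 had a higher mean and the median was 0.12. Of these 35 genes 0 passed the limma test.

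**Figure D2:**
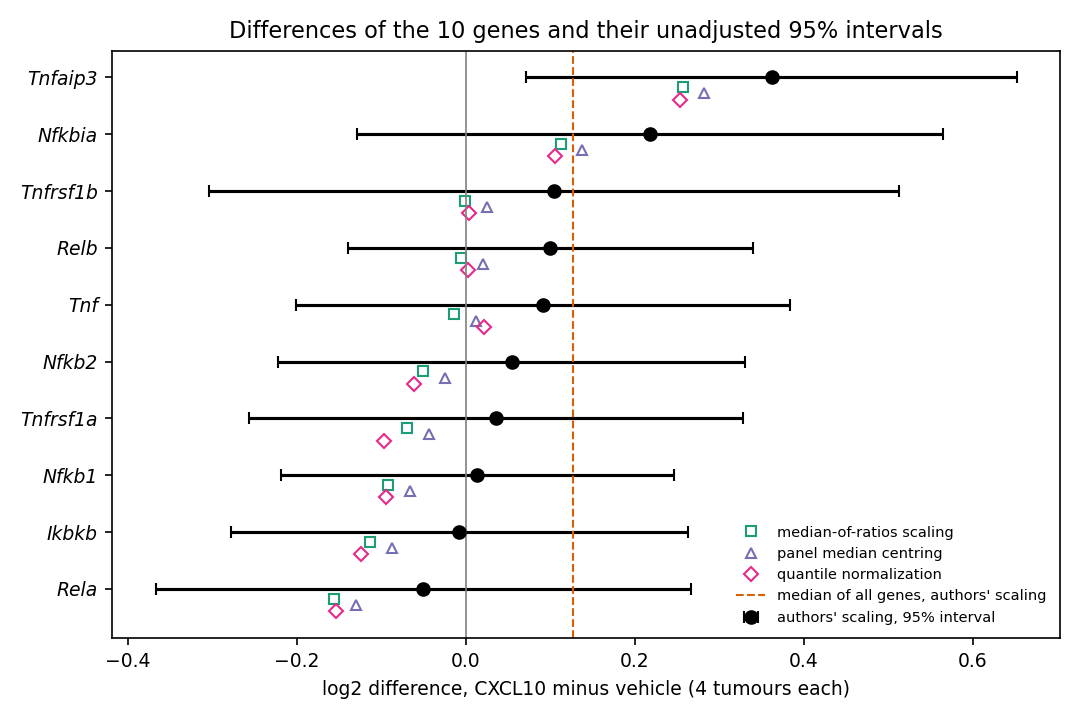
Log2 difference between CXCL10 and vehicle tumours (horizontal axis) for each of the 10 genes, with its unadjusted 95% interval on the authors' scaling (black) and the values under 3 other scalings (open markers). The dashed line is the panel median of 0.13. The interval of Tnfaip3, from 0.07 to 0.65, is the only 1 of the 10 that leaves out 0, and its value stays between 0.25 and 0.28 under the other scalings.

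CXCL10-treated tumour 4 carried much of the spread. It was the highest of the 8 tumours for 7 of the 10 genes: Tnf, both receptors, Nfkb2, Rela, Nfkbia and Tnfaip3. Across the panel it was the highest tumour for 33.3% of genes, and treated tumour 2 for 34.3%. In treated tumour 4, 9 of the 10 genes lay above their vehicle mean, with a median log2 deviation of 0.31, against 71.9% of genes and a median of 0.22 over the panel. In treated tumours 1, 2 and 3 the numbers above the vehicle mean were 3, 7 and 4 of 10, with median deviations of -0.07, 0.06 and -0.03. Over the panel 43.4%, 78.6% and 60.03% of genes lay above it in these tumours, with median deviations of -0.03, 0.26 and 0.07. The largest deviations in treated tumour 4 were those of Tnfrsf1b (0.61), Tnfaip3 (0.60) and Nfkbia (0.58), while Nfkb1, Relb and Ikbkb deviated by 0.03, 0.08 and -0.01. Without that tumour 5 of the 10 genes were higher and their median log2 difference was -0.00075, against 0.10 for the panel. The SD of the log2 level was larger in CXCL10 than in vehicle tumours for 9 of the 10 genes, all but Relb, against 54.8% of the panel, and no test of the spread was made.

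**Figure D3:**
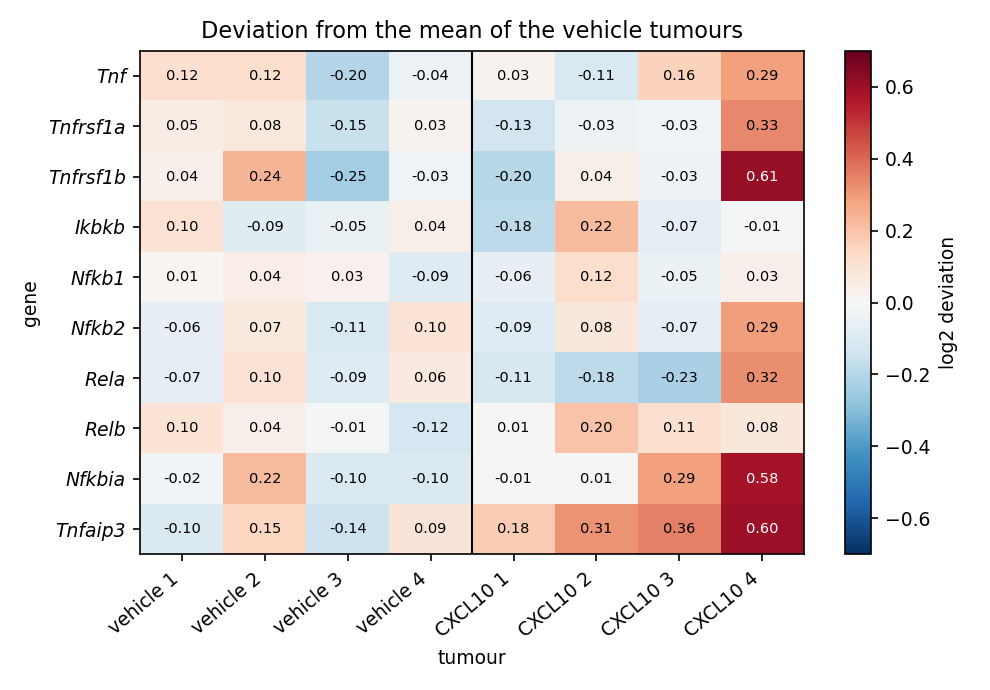
Deviation of the log2 level of each of the 10 genes (rows) from the mean of the vehicle tumours, in each of the 8 tumours (columns), with the value printed in each cell. Treated tumour 4 is high for Tnf, the receptors, Nfkb2, Rela, Nfkbia and Tnfaip3 and near 0 for Ikbkb, Nfkb1 and Relb. Tnfaip3 and, by smaller amounts, Relb are above 0 in all 4 treated tumours.

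The genes varied together to different degrees over the 8 tumours. All 45 pairs were compared with exact two-sided permutation tests, and 40 of the 45 had a positive Pearson r, with a median of 0.46. The median was 0.20 with the 2 tumours farthest from the median of the pair's first gene left out, and 0.32 without CXCL10 tumour 4. All values of a tumour share its scaling factor, which can push such correlations up. The same count was not made for pairs of other panel genes. A mostly positive r is thus not shown to be particular to these genes. After Benjamini-Hochberg adjustment over the 45 pairs 1 pair passed for Pearson's r and 0 passed for Spearman's rho. At an unadjusted exact p under 0.05 the counts were 14 and 7. The pair that passed was Tnfrsf1a and Tnfrsf1b, with r = 0.97 (exact permutation p = 0.000347, adjusted p = 0.0156) and rho = 0.86 (exact permutation p = 0.0107, adjusted p = 0.173). With the 2 tumours farthest from the median of Tnfrsf1a left out the r of the receptors was 0.86, and without treated tumour 4 it was 0.91. The receptor genes thus varied together between tumours, and for values centred on their group mean r was 0.98.

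Tnf itself followed Nfkbia, with r = 0.84 (exact permutation p = 0.00707, adjusted p = 0.0696) and rho = 0.83 (exact permutation p = 0.0154, adjusted p = 0.173), and r was 0.69 with the 2 tumours farthest from the median of Tnf left out. Nfkbia and Tnfaip3 had r = 0.83 (exact permutation p = 0.00774, adjusted p = 0.0696) and rho = 0.90 (exact permutation p = 0.00456, adjusted p = 0.173), but r was 0.41 with the 2 tumours farthest from the median of Nfkbia left out. Leaving out the tumours at the ends narrows the range of Nfkbia, which can itself lower r. How far the relation rested on those tumours therefore cannot be told. Without CXCL10 tumour 4 alone r was 0.63. Neither pair passed the adjustment.

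Ratios of a pair of genes within a tumour do not depend on the tumour's scaling. Probes differ in how well they capture their target, so only the change of a ratio between groups can be read. The log2 ratio of Tnfrsf1b to Tnfrsf1a was higher by 0.07 in CXCL10 tumours, that of Nfkb2 to Nfkb1 by 0.04, that of Relb to Rela by 0.15 and that of Tnfaip3 to Nfkbia by 0.14, while that of Tnf to Nfkbia was lower, with a difference of -0.13. The groups overlapped for all 5 ratios. The ratio of Relb to Rela was -0.42, -0.16 and -0.21 in treated tumours 1 to 3 and -0.79 in treated tumour 4, against -0.73 to -0.38 in vehicle tumours, so the treated group spanned the whole vehicle range.

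By a rule on likeness, the panel genes whose log2 values over the 8 tumours were most like those of Tnf were named, out of 683 candidates and as a description without a test. They were Tap1, a peptide transporter of MHC class I loading (r = 0.96), Lyz2, the lysozyme of macrophages and neutrophils (0.93), Cdkn1a, a cell cycle inhibitor (0.91), Ido1, an enzyme of tryptophan breakdown (0.90), and Ccl5, a chemokine of T cells and NK cells (0.90). Each of these 5 was highest in CXCL10 tumour 4 and lowest in vehicle tumour 3 among the 8 tumours, as Tnf was. Their choice by likeness to Tnf over the same tumours makes such a match likely. Their log2 differences between groups were 0.14, 0.05, 0.02, 0.64 and 0.17, with limma adjusted p from 0.302 to 0.948.

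Signal transducers between the TNF receptors and NF-kB were listed separately, and 26 of 36 listed genes were measured. Of these 0 passed the limma test in either direction, 18 had a higher and 8 a lower mean, and the median log2 difference was 0.12. Tbk1, an IKK-related kinase, had the smallest p of the list, with a log2 level of 9.02 ± 0.20 in vehicle and 9.36 ± 0.08 in CXCL10 tumours (SD, n = 4 each). Its difference was 0.35 (SE 0.13, limma adjusted p = 0.195), and its groups did not overlap. Casp8, the initiator caspase of death receptors, differed by 0.30 (SE 0.13, limma adjusted p = 0.223). Chuk, which encodes the IKK-alpha partner of Ikbkb, differed by 0.43 (SE 0.19, limma adjusted p = 0.241), with vehicle tumours spread from 9.86 to 10.61 and treated tumours from 10.49 to 10.85. The remaining subunit of that complex, Ikbkg, differed by 0.19 (limma adjusted p = 0.428). Tbk1 and Bcl10, an adaptor of antigen receptor signalling, were the 2 of 26 genes whose groups did not overlap, a share no higher than the 10.8% of the panel.

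Among known NF-kB target genes 26 of 32 listed genes were measured, and 0 passed the limma test. The mean was higher for 20 and lower for 6, with a median log2 difference of 0.17. That median was 0.08 without CXCL10 tumour 4 and 0.11 without vehicle tumour 4, against 0.10 and 0.12 for the panel. It was 0.07 by median-of-ratios, 0.09 by panel centring and 0.06 by quantiles, against 0.02, 0.05 and 0.01 for the panel. Ccl2, a chemokine that draws monocytes, had the smallest p, and it was the 1 gene of the list whose groups did not overlap, with vehicle tumours at 11.28 to 11.99 and treated tumours at 12.00 to 12.35. In the panel 10.8% of genes did not overlap, a larger share than 1 of 26. Its difference was 0.54 (SE 0.18, limma adjusted p = 0.185). Cxcl1, a chemokine for neutrophils, differed by 0.32 (SE 0.15, limma adjusted p = 0.278) and Irf1, which is also induced by interferon gamma, by 0.28 (SE 0.14, limma adjusted p = 0.316). Some other targets stood close to no difference or below it, such as Icam1 at 0.02, Il1b at -0.14 and Lcn2 at -0.32. More of the list stood above it, such as Lif at 0.32 and Il6 at 0.30. The values of the list thus lay on both sides, as they did for the panel.

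**Figure D4:**
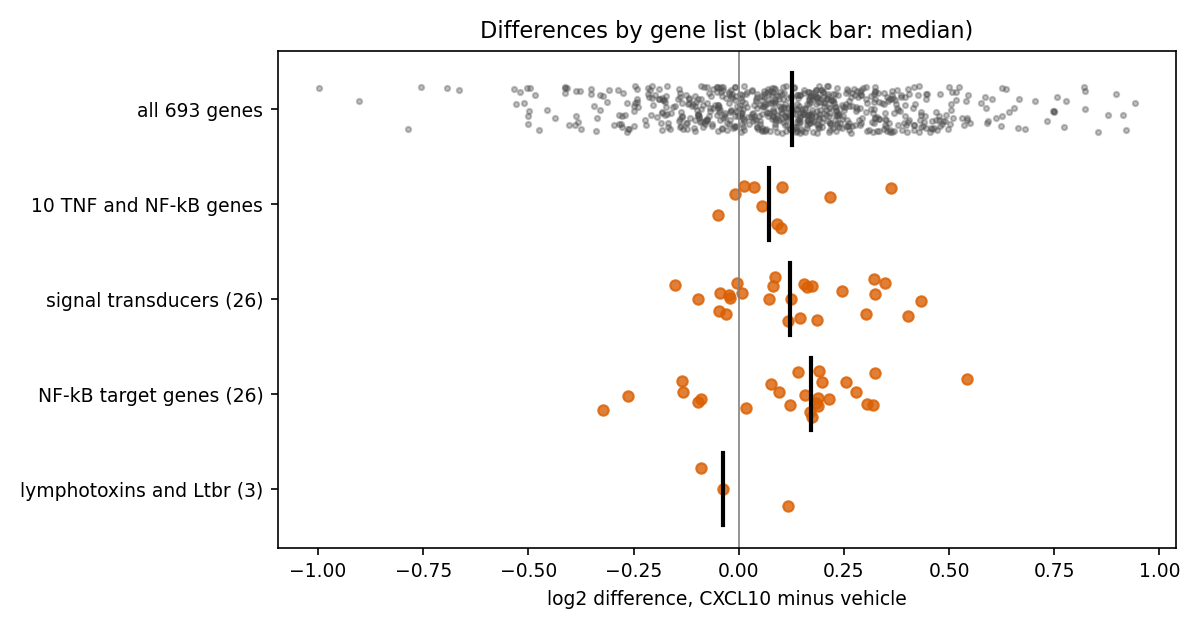
Log2 difference between CXCL10 and vehicle tumours (horizontal axis) for all 693 genes, the 10 TNF and NF-kB genes and 3 further lists, each point being a gene and each black bar a median (vertical scatter has no meaning). The medians, from top to bottom, are 0.13, 0.07, 0.12, 0.17 and -0.04. The genes of every list are also among the 693, so no list can lie outside the panel.

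Rel, the remaining member of the NF-kB family, differed by 0.26 (SE 0.17, limma adjusted p = 0.428), and it was the 1 of 6 listed NF-kB and IkB relatives that was measured. The lymphotoxins Lta and Ltb, which are encoded beside Tnf, differed by -0.04 (SE 0.18) and -0.09 (SE 0.17), and their receptor Ltbr by 0.12 (SE 0.11), with limma adjusted p from 0.576 to 0.908.

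Levels of cell type markers are given beside these values, and their part in them was not tested. None of the marker lists had summed levels that set the groups apart, though single markers in some lists did. The mean of 69.6% of all panel genes was higher after CXCL10. T cell markers had a higher mean after CXCL10 in 8 of 8 measured genes (median log2 0.26), with summed levels of 1575 to 2170 normalised counts in vehicle and 2124 to 2613 in CXCL10 tumours, highest in treated tumour 4. Of the 8, 2 had groups that did not overlap, all higher, against 7.79% of the panel. An unadjusted limma p under 0.05 was reached by 4 of the 8, all higher, against 15.0% of the panel. Endothelial markers had a lower mean in 7 of 7 (median -0.41), with sums of 2663 to 3321 and 1989 to 2712. Gene by gene, the groups did not overlap for 5 of the 7, all lower, against 3.03% of the panel. An unadjusted limma p under 0.05 was reached by 6 of the 7, all lower, against 4.04% of the panel. Macrophage and monocyte markers had a higher mean in 4 of 7 (median 0.03), with sums of 8638 to 11201 and 8462 to 14913, and that of treated tumour 4 was 9300. Neutrophil markers had a lower mean in 3 of 3 (median -0.19), with sums of 5434 to 12066 and 3816 to 9271. Epithelial markers had a higher mean in 3 of 4 (median 0.06), with sums of 7902 to 9241 and 8725 to 10805, and treated tumour 4 was again the highest treated tumour in both of the last lists. NK cell markers had a higher mean in 4 of 4 (median 0.34), mast cell markers in 4 of 4 (0.22), dendritic cell markers in 3 of 4 (0.30), B cell markers in 2 of 4 (-0.0056), and markers of fibroblasts and pericytes in 1 of 6 (-0.15). Groups also failed to overlap for 1 of 4 dendritic cell markers (higher) and 1 of 6 fibroblast and pericyte markers (lower). In each of the remaining marker lists that count was 0. No measured marker of these 10 lists was at a count of 0, the lowest count being 19, and none passed the limma test.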

How the data were processed

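The authors deposited log2 normalised counts of 693 genes in 8 tumours. Per the file headers, 55 of 748 endogenous probes were pruned and 6 of 20 housekeeping genes were used in normalization. Instrument and software are not stated in any source used. The coefficient of variation in percent is that of the authors' deposited table. Another 16 value columns, named by lane, could not be matched to samples and were not used, so probe background was not assessed.

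Taken out of log2, the deposited values were whole multiples of 1 step per tumour: 100% came out whole within 0.02 counts, which gave the counts and totals.

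The test was limma 3.58.1 (lmFit and eBayes, R 4.3.3) on the log2 values, with group as the only term. Adjustment was by Benjamini-Hochberg over 693 genes. As a check of the code, the fit was run on simulated data with independent noise in each gene and tumour. That check does not bear on shifts shared by the genes of a tumour. Intervals are limma's 95% intervals, unadjusted. Relations were tested by exact permutation (numpy 2.4.6). Alternatives were other variance models, voom weights, 3 scalings, a pseudocount of 1, filters, a replicate block and leaving out each tumour.

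Members and lists were chosen with earlier results of these data known. Named are all members, the 3 genes of smallest p per pathway list, the 5 most like Tnf, and genes singled out after their values were seen (Cd96, Il18r1, Ikbkg, Bcl10, Icam1, Il1b, Lcn2, Lif, Il6, Epcam and Cdh1). Gene names and identifiers are those of the deposited annotation.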

Additional observations from a re-analysis of the deposited data

Results flagged for a closer look

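Each set of 4 values, a gene or ratio within a group, was searched for a tumour standing apart by Dixon's gap test at its 95% critical value. Such a tumour was found in 3 of 60 sets, and chance alone gives about 1 in 20. The log2 ratio of Nfkb2 to Nfkb1 was 1.12 in CXCL10 tumour 4 against 0.82 to 0.85 in the other treated tumours. The log2 ratio of Tnfaip3 to Nfkbia was 0.49 in vehicle tumour 4 against 0.22 to 0.25 in the other vehicle tumours. The log2 level of Ltbr was 9.95 in vehicle tumour 4 against 9.80 to 9.82 in the others of that group.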

How the results depend on the processing

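In every setting tried 0 of the 10 genes passed, with a lowest adjusted p of 0.147, for Tnfaip3 without vehicle tumour 2. Tnfaip3, Nfkbia, Tnf and Relb were higher in every leave-one-out fit, and Tnfaip3 and Nfkbia in every setting. The number of panel genes called, 2 in the fit reported, was 0 with a mean-variance trend, voom weights, median-of-ratios scaling, panel median centring or the replicate block, 1 with quantile normalization (Dll4, lower) or with values of at least 100 in 4 tumours (Il18r1), and 0 to 5 with 1 tumour left out; the 5 were called without vehicle tumour 2 (Cd69, Cd96 and Slamf1 higher, Cd207 and Clu lower). Same-numbered tumours did not deviate together (correlations 0.25, -0.32, 0.23 and -0.26), so the replicate block shares a number and no more.

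The count of members whose groups do not overlap was 0 with median-of-ratios scaling and 1 to 2 with 1 tumour left out. Nfkbia joined Tnfaip3 without vehicle tumour 2, and Rela did so without CXCL10 tumour 4. Groups of fewer tumours separate more easily, and the share of the panel in these settings is not given, so these counts have no background. Differences of small size changed sign. With median-of-ratios scaling they were -0.014 for Tnf, -0.070 for Tnfrsf1a, -0.0014 for Tnfrsf1b, -0.092 for Nfkb1, -0.051 for Nfkb2 and -0.0057 for Relb. With panel median centring they were -0.044 for Tnfrsf1a, -0.066 for Nfkb1 and -0.025 for Nfkb2, and with quantile normalization -0.097, -0.095 and -0.061 for the same genes. With 1 tumour left out the range was -0.085 to 0.050 for Ikbkb, -0.064 to 0.091 for Tnfrsf1a, -0.023 to 0.037 for Nfkb1, -0.18 to 0.0089 for Rela, -0.065 to 0.21 for Tnfrsf1b, -0.025 to 0.10 for Nfkb2, 0.024 to 0.16 for Tnf, 0.058 to 0.13 for Relb and 0.096 to 0.29 for Nfkbia. The median of the signal transducers was 0.016 by median-of-ratios, 0.042 by centring and -0.022 by quantiles. The panel median was 0.021, 0.047 and 0.012 in these settings. The cause of these shifts was not tested.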
